A study of Mus musculus with 24 samples.

Results

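The genes described here are 39 genes of the heart muscle cell: its contractile filaments, its calcium cycle, its electrical coupling and the genes that mark its chambers. They were taken by symbol from a list of cardiac genes, and all 39 were found among the 54658 gene symbols of the count table. The libraries hold RNA of the heart and the lung of male C57BL/6 mice, 7 to 12 weeks old, with sepsis provoked by cecal ligation and puncture (CLP), a surgical opening of the cecum that releases gut bacteria into the peritoneum. As vehicle, 3 mice received saline, and 3 mice received β-nicotinamide mononucleotide (β-NMN, a precursor of NAD+) intraperitoneally at 185 mg/kg. All 6 carried the CLP injury, so no uninjured animal stands behind any value. Organs were taken 24 h after CLP and 24 h after the last dose, which the paper describes as a single administration. Heart and lung came from the same animals. Samples of peritoneal cells belong to another model and were not used here. The source labels of these organs name thioglycollate while titles and tissues name CLP, and a pair of β-NMN hearts carries the number 3 in the labels, of which the heart of the mouse with lung number 2 was taken as replicate 2. The sources used here do not say which part of the heart was taken.

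A heart muscle cell contracts when calcium enters through the L-type channel, releases more calcium from the sarcoplasmic reticulum through the ryanodine receptor and frees actin for myosin by way of troponin. SERCA then pumps the calcium back under the restraint of phospholamban in ventricles and sarcolipin in atria. Atria and ventricles use different light chains of myosin (Myl4 and Myl7 against Myl3 and Myl2), while the heavy chain of the adult mouse heart is mainly α-myosin (Myh6), with β-myosin (Myh7) as a minor form. Natriuretic peptides (Nppa, Nppb), skeletal actin (Acta1) and Ankrd1 are known to respond to mechanical load. In mice, heart muscle also extends along the pulmonary veins into the lung.

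The 3 genes of the myosin heavy chains each carry a microRNA in an intron, and the trio is shown because the host transcripts are among those described below. The microRNAs themselves are not measured by sequencing of poly(A) RNA. Mature sequences are those of RefSeq on GRCm38.p6, with the seed, bases 2 to 8, in capitals.
miR-208a-3p, in Myh6, chr14:54949072-54949093, minus strand: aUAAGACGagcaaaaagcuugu
miR-208b-3p, in Myh7, chr14:54975710-54975731, minus strand: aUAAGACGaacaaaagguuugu
miR-499-5p, in Myh7b, chr2:155622893-155622913, plus strand: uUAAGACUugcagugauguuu
The microRNAs of Myh6 and Myh7 share their seed, and that of Myh7b has another.

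Total counts ranged from 27319513 to 68523239 in hearts and from 8915366 to 28356786 in lungs, and the 39 genes took 9.61% to 11.3% of the counts of a heart but 0.0863% to 0.146% of those of a lung. Values below are CPM, the reads of a gene relative to its library's total after TMM scaling within an organ, unless another scale is named. The heart of vehicle replicate 2 stood apart. Over the genes tested, its log2 CPM differed from the other hearts with an SD of 0.926 to 1.18, against 0.508 to 0.676 among the others. Mitochondrial genes made up 12.9% of its counts and 18.2% to 22.7% of those of the other hearts. Summed fibroblast markers reached 2198 CPM in it (893 to 1325 in the others), adipocyte markers 74.6 CPM (0.171 to 15.7) and skeletal muscle markers 37.4 CPM (7.34 to 11.9, with Myh1 at 0 in every heart). Lung epithelial markers summed to 0.894 to 2.77 CPM in hearts and to at least 58154 CPM in lungs, so the organs matched their labels. Results in hearts are given with this library and, where they change, without it. In bulk samples, fewer cells of a type and less RNA per cell cannot be told apart.

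β-NMN was compared with vehicle in hearts with edgeR's quasi-likelihood test over 16245 genes. At an adjusted p below 0.05 it called 0 of the 39 genes, where 0.00% of all genes tested were called. At an unadjusted p below 0.05 there were 8 of 39 genes, against 11.3% of all genes tested. Higher with β-NMN were Myh7, Myh7b, Acta1, Csrp3 and Myom2 (3.68% of all genes), and lower were Myl4, Nppa and Gja5 (7.63%). Without vehicle replicate 2 such a p was found for 11 genes, while 0 were called (10.3% and 0.0296% of all genes). Of these, 10 were higher (4.41% of all genes) and included Myl2, Tnnc1, Actn2, Mybpc3, Nppb and Des but not Myom2, and 1, Gja5, was lower (5.94%). DESeq2, as another test, called 3 of the 39 genes at an adjusted p below 0.05, namely Myh7b, Acta1 and Gja5, where it called 1.74% of all genes, and gave 14 an unadjusted p below 0.05 (13.6%). The fitted fold change was above 0 for 31 of the 39 genes (49.3% of all genes) and for 27 of them without vehicle replicate 2 (49.7%). The groups did not overlap at 17 of the 39 genes (23.1% of all genes). Of these, 16 were higher with β-NMN (11.6% of all genes) and 1 was lower (11.5%). Vehicle replicate 2 held the lowest value of the 6 hearts at 28 of the 39 genes, where it did so at 36.1% of all genes, and the highest at 9 genes (36.9%).

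**Figure D1:**
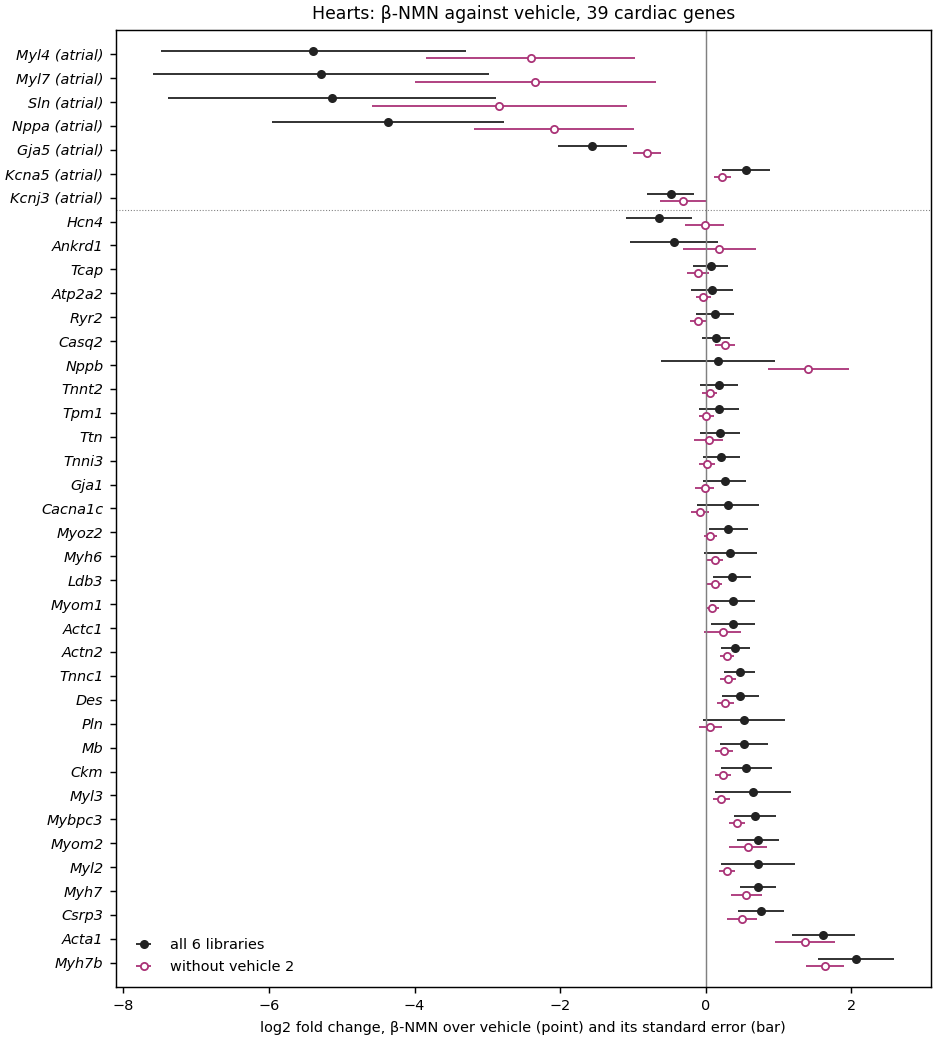
Log2 fold change of β-NMN over vehicle in hearts (x axis) for each of the 39 genes (y axis), with its standard error as a bar, from all 6 hearts (filled points) and without vehicle replicate 2 (open points); atrial genes stand above the dotted line. Most genes outside the atrial list lie right of 0 and move toward 0 without that heart, Myl4, Myl7, Sln and Nppa lie far to the left with wide bars, and Myh7b and Acta1 stay right of 1 in both fits.

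Among the 7 atrial genes, 6 had a lower fitted value with β-NMN and 0 were called by edgeR, and vehicle heart 2 was the highest heart in 6. Myl4, the essential light chain of atrial myosin, stood at 8.37, 2715 and 238 CPM in vehicle hearts 1, 2 and 3 and at 48.8, 21 and 1.24 CPM in the β-NMN hearts. Myl7, the atrial regulatory light chain, stood at 5.07, 2111 and 192 CPM with vehicle and at 43.2, 16.3 and 0.14 CPM with β-NMN. Sln, or sarcolipin, stood at 1.34, 804 and 121 CPM against 21.5, 5.51 and 0.062 CPM. All 3 genes put the hearts in the same order, from vehicle 2 through vehicle 3, β-NMN 1, β-NMN 2 and vehicle 1 down to β-NMN 3, so the groups overlapped. In β-NMN heart 3, Sln rested on 4 reads and Myl7 on 9 of 68523239. Nppa, the atrial natriuretic peptide, had 16.3, 4009 and 619 CPM with vehicle and 101, 82.9 and 42 CPM with β-NMN, with vehicle 1 as the lowest heart.

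The fitted log2 fold changes of these 4 genes were large and uncertain. They were -5.39 ± 2.09 (SE) for Myl4, -5.28 ± 2.31 for Myl7, -5.13 ± 2.25 for Sln and -4.36 ± 1.59 for Nppa, each with an adjusted p of 0.435 in edgeR. Without vehicle replicate 2 they shrank to -2.41, -2.34, -2.83 and -2.09. In limma-voom with quality weights, Nppa turned to 0.089 with all hearts kept, so its direction depended on the fit, while Myl4, Myl7 and Sln stayed lower at -1.24, -1.75 and -1.23. Relative to the matching ventricular transcript of the same library, a quantity that no scaling changes, the Myl7 reads amounted to 0.148%, 244% and 5.37% of the Myl2 reads in vehicle hearts and to 0.984%, 0.359% and 0.00352% in β-NMN hearts. In vehicle heart 2, Myl7 thus had more reads than Myl2, which no other heart showed. Myl4 reads were 292% of the Myl3 reads in that heart and between 0.0296% and 6.11% in the other 5. Sln reads were 555% of the Pln reads in it and between 0.00996% and 16.5% elsewhere. For each of these ratios the groups overlapped, and an exact two-sided permutation test of 3 hearts against 3 gave p = 0.3, where 0.1 is the smallest p it can give.

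**Figure D2:**
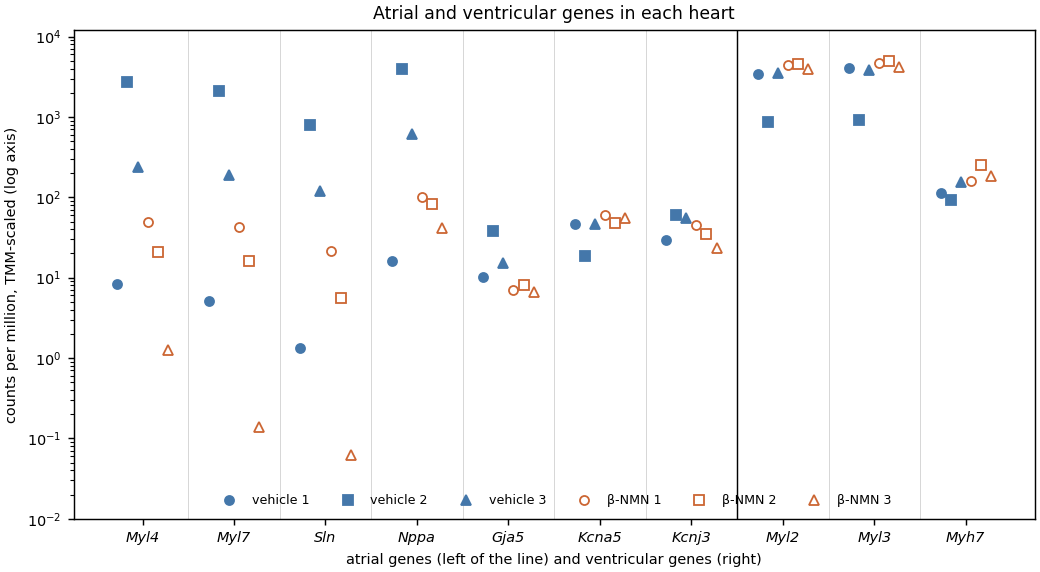
CPM (y axis, log scale) of 7 atrial and 3 ventricular genes (x axis) in each of the 6 hearts; filled blue symbols are vehicle, open orange symbols β-NMN, and circles, squares and triangles are replicates 1, 2 and 3. For Myl4, Myl7, Sln and Nppa, vehicle heart 2 (filled square) is the highest, and for Myl2 and Myl3 it is the lowest.

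The other atrial genes did not all follow that order. Gja5, or connexin 40, the gap junction protein of atria, of the fast conduction system and of arterial endothelium, had 10.1, 38.3 and 15 CPM with vehicle and 6.96, 8 and 6.59 CPM with β-NMN. Every β-NMN heart was below every vehicle heart, and the log2 fold change was -1.56 ± 0.47 (SE; edgeR adjusted p = 0.435, DESeq2 adjusted p = 0.0487) and -0.81 without vehicle replicate 2 (edgeR adjusted p = 0.22). Kcna5, the channel of the ultrarapid potassium current, was lowest in vehicle heart 2. It had 46.5, 18.8 and 46.2 CPM against 59.8, 48.1 and 56 CPM, with every β-NMN heart above every vehicle heart (log2 fold change 0.56 ± 0.33, edgeR adjusted p = 0.48, and 0.23 without vehicle 2). Kcnj3, a subunit of the acetylcholine-gated potassium channel, ranged from 29.6 to 59.6 CPM with vehicle and from 23.6 to 45.2 CPM with β-NMN and overlapped. Unlike Gja5 and Kcna5, Kcnj3 put the hearts in the same order as Myl4, Myl7 and Sln. Hcn4, the pacemaker channel of the sinus node, had 9.54, 19.1 and 4.71 CPM against 7.45, 7.35 and 6.7 CPM and overlapped too.

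Atrial genes outside the 39 were highest in the same heart when summed. The 12 further atrial genes summed to 575, 2805 and 1024 CPM in vehicle hearts and to 744, 788 and 650.2 CPM in β-NMN hearts. Of 11 that were tested, 9 were lower with β-NMN and edgeR called 0 (DESeq2 1), with a median log2 fold change of -1.45, and of -0.29 without vehicle replicate 2, where the median of all genes was -0.0058 and -0.0020. An unadjusted p below 0.05 was found for 6, of which 1 was higher (3.68% of all genes) and 5 were lower (7.63%). Without vehicle 2 it was found for 4, of which 2 were higher (4.41%) and 2 lower (5.94%). Sbk3, an atrial kinase, had 12.3, 292 and 63.9 CPM with vehicle against 13.5, 9.28 and 9.61 CPM. Sbk2 had 11, 61.1 and 24.9 CPM against 9.05, 9.9 and 5.44 CPM, which did not overlap (DESeq2 adjusted p = 0.0266). The part of atrial tissue content in the treatment difference was not tested. Atrial content and treatment cannot be told apart in hearts whose sampled region is not given.

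Ventricular genes ran the other way in vehicle heart 2. Myl2, the regulatory light chain of ventricles, had 3422, 865 and 3572 CPM with vehicle and 4396, 4543 and 3969 CPM with β-NMN. Myl3, its essential partner, had 4019.7, 929.5 and 3893 CPM against 4682, 4992 and 4190.4 CPM. For both genes the β-NMN hearts lay above every vehicle heart, and the distance to vehicle 1 and 3 was small beside that to vehicle 2. The log2 fold changes, 0.72 ± 0.51 for Myl2 and 0.65 ± 0.52 for Myl3 (SE; edgeR adjusted p = 0.523 and 0.563), fell to 0.29 ± 0.11 and 0.22 ± 0.11 without vehicle 2 (adjusted p = 0.411 and 0.566). The 4 further ventricular genes summed to 887, 200.3 and 806 CPM with vehicle and to 1019, 932 and 983 CPM with β-NMN. All 4 had a higher fitted value with β-NMN, edgeR and DESeq2 called 0, edgeR gave 0 an unadjusted p below 0.05 (1 without vehicle 2), and their median log2 fold change was 0.51, or 0.084 without vehicle 2. Kcnip2, a subunit of the transient outward current, had 73.1, 19.7 and 107 CPM against 149, 178 and 103 CPM, and Fhl2 had 766, 169.5 and 665 CPM against 833, 716 and 834 CPM. Both overlapped.

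Of the 11 thick-filament genes 9 had a higher and 2, the atrial light chains, a lower fitted value with β-NMN. The groups did not overlap in 8, all 8 higher with β-NMN (11.6% of all genes). Myh7b showed the largest rise in fitted value of all 39 genes. Myh7b is an ancient slow-type myosin whose transcript hosts miR-499 and yields little protein in heart. It had 11.2, 3.18 and 13.8 CPM in vehicle hearts (mean 9.38 ± 5.52, SD, n = 3) and 37, 52.1 and 28 CPM in β-NMN hearts (39 ± 12.2). Every β-NMN heart was above every vehicle heart, with a fold of 4.17 between fitted means and a log2 fold change of 2.06 ± 0.52 (SE). EdgeR gave an unadjusted p of 0.0057 and an adjusted p of 0.435, and DESeq2 an adjusted p of 0.00724. With any single heart left out, the log2 fold change stayed between 1.64 and 2.44, and the lowest adjusted p in edgeR was 0.147. Its exons overlap those of Trpc4ap on the opposite strand, and the strand setting of the counting is not given, so reads of that gene cannot be told apart.

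Myh7, the β-myosin heavy chain, had 114, 93.2 and 154 CPM with vehicle and 157, 252 and 186 CPM with β-NMN (log2 fold change 0.72 ± 0.25, edgeR adjusted p = 0.435, and 0.56 without vehicle 2). Its groups did not overlap, by a margin of a few CPM between vehicle 3 and β-NMN 1. Myh6, the α-myosin heavy chain, was the most abundant of the 39 genes, with 29503, 17952 and 29719.8 CPM against 31511, 33821 and 32441 CPM. Its log2 fold change of 0.34 ± 0.36 fell to 0.13 without vehicle 2. Measured within each library, Myh7 reads were 0.387%, 0.519% and 0.518% of Myh6 reads with vehicle and 0.499%, 0.746% and 0.573% with β-NMN. The groups overlapped, with a difference of 0.35 in log2 ratio (0.42 without vehicle 2) and p = 0.3 in the exact permutation test, which with 3 hearts against 3 cannot go below 0.1. Exons of Myh7 overlap antisense transcripts, among them Mhrt.

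Mybpc3, the myosin-binding protein C of the A-band, had 2093, 1231 and 2429 CPM against 3099, 2888 and 3194 CPM, and its log2 fold change was 0.67 ± 0.29 (edgeR adjusted p = 0.435) or 0.43 ± 0.11 without vehicle 2 (adjusted p = 0.273). Myom2, an M-band protein that tethers thick filaments, had 671, 759 and 1341 CPM against 1580.4, 1451 and 1517 CPM. Its β-NMN hearts lay closer together than its vehicle hearts, and vehicle 2 was not its lowest heart. The log2 fold change of Myom2 was 0.71 ± 0.29 (adjusted p = 0.435) and 0.58 without vehicle 2. Myom1, its more uniform relative, had 1789, 886 and 1881 CPM against 1999, 1949 and 1947 CPM (0.37 ± 0.30, and 0.091 without vehicle 2). Ttn, or titin, the spring that spans from Z-disc to M-band, ranged from 1784 to 3070.3 CPM with vehicle and from 2254 to 3008 CPM with β-NMN and overlapped.

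Of the 6 thin-filament genes all had a higher fitted value with β-NMN (49.3% of all genes), and 0 were called by edgeR. Acta1 alone had an unadjusted p below 0.05, where 3.68% of all genes were higher with such a p. Without vehicle 2 it was joined by Tnnc1 (4.41%). Acta1, skeletal α-actin, which fetal and loaded hearts express beside cardiac actin, had 176, 78.8 and 113 CPM with vehicle (mean 123 ± 49.4, SD, n = 3) and 335, 580.3 and 212 CPM with β-NMN (376 ± 188). Every β-NMN heart exceeded every vehicle heart, the fold was 3.06 and the log2 fold change 1.62 ± 0.44 (SE; edgeR adjusted p = 0.435, DESeq2 adjusted p = 0.0169). It was 1.37 without vehicle 2 and between 1.16 and 1.97 with any single heart left out. Measured against cardiac actin in the same library, Acta1 reads were 6.46%, 4.33% and 4.94% of Actc1 reads with vehicle and 11.5%, 14.8% and 10.3% with β-NMN. This was the only one of 6 ratios whose groups did not overlap (a difference of 1.22 in log2 ratio). The exact permutation test gave p = 0.1, the smallest possible, and 0.3 after Benjamini-Hochberg adjustment over the 6 ratios. The coding sequences of the actins are closely related, so reads may be shared between Acta1 and Actc1.

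Tnnc1, cardiac troponin C, was the other thin-filament gene without overlap, with 1375, 982 and 1434 CPM against 1718, 1897 and 1624 CPM (log2 fold change 0.47 ± 0.21, edgeR adjusted p = 0.439, and 0.31 ± 0.11 without vehicle 2). The remaining thin-filament genes overlapped. Tnnt2 (troponin T), Tnni3 (troponin I), Tpm1 (tropomyosin) and Actc1 (cardiac actin) had log2 fold changes of 0.18, 0.22, 0.18 and 0.38, and of 0.054, 0.018, 0.011 and 0.24 without vehicle 2. Tnnt2 shows how narrow this spread was, with 7163 to 9604 CPM in vehicle hearts and 9491 to 10145 CPM in β-NMN hearts.

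The Z-disc anchors actin and senses stretch, and desmin ties it to its neighbours. Csrp3, the muscle LIM protein, had 463, 271 and 567 CPM against 690.3, 931 and 577 CPM, with a log2 fold change of 0.76 ± 0.31 (edgeR adjusted p = 0.435) or 0.50 without vehicle 2. Actn2, the α-actinin that crosslinks actin, had 1840.1, 1511 and 2026 CPM against 2319, 2448 and 2378 CPM (0.41 ± 0.20, and 0.29 without vehicle 2). Des, or desmin, had 2402, 1505 and 2486 CPM against 3086, 3168 and 2644 CPM (0.48 ± 0.26, and 0.27 without vehicle 2). In these 3 genes no β-NMN heart fell below a vehicle heart, but for Csrp3 vehicle 3 and β-NMN 3 nearly touched. Ldb3 (also named ZASP), Myoz2 (calsarcin) and Tcap (telethonin) overlapped, at log2 fold changes of 0.37, 0.31 and 0.069, and that of Tcap turned to -0.10 without vehicle 2. Myoglobin and muscle creatine kinase, which store oxygen and buffer ATP, followed the same course. Mb had 5435, 2605 and 5174 CPM against 6836, 6558 and 5643 CPM, and Ckm had 995, 392 and 898 CPM against 1162, 1189 and 1018 CPM. Their log2 fold changes were 0.53 and 0.56, and 0.25 and 0.24 without vehicle 2.

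**Figure D3:**
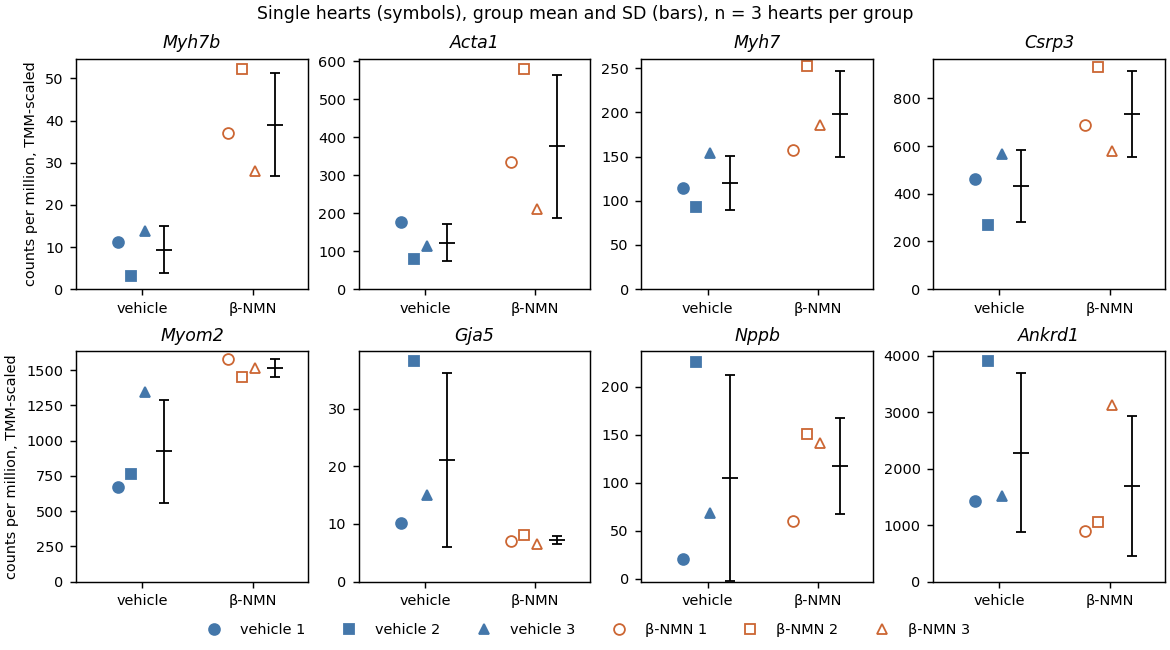
CPM (y axes, linear) of 8 genes in single hearts, with vehicle in filled blue and β-NMN in open orange symbols (circle, square and triangle for replicates 1, 2 and 3), and the group mean with its SD (n = 3) as a black bar beside them. Myh7b and Acta1 separate the groups, Gja5 does so in the other direction, and Nppb and Ankrd1 do not, with vehicle heart 2 as their highest value.

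Of the 6 genes of the calcium cycle, Sln among them, edgeR and DESeq2 called 0 and edgeR gave 0 an unadjusted p below 0.05. The groups overlapped in all 6, and outside Sln the log2 fold changes lay between 0.088 (Atp2a2) and 0.52 (Pln). Ryr2, the ryanodine receptor, had 1472, 899 and 1696 CPM against 1391, 1574 and 1487 CPM. Atp2a2, the SERCA pump, had 16856, 13136 and 16868 CPM against 15850.0, 16519 and 17434 CPM. Their log2 fold changes of 0.13 and 0.088 turned to -0.10 and -0.030 without vehicle 2, each smaller than its standard error. Pln, or phospholamban, had 749, 145 and 735 CPM against 891, 827 and 622 CPM, and its log2 fold change of 0.52 ± 0.56 was 0.064 without the vehicle heart at 145 CPM. Casq2, the calcium buffer calsequestrin, ranged from 340.0 to 469 CPM against 373 to 499 CPM. Cacna1c, the pore of the L-type channel, ranged from 115 to 387 CPM against 323 to 422 CPM. Gja1, or connexin 43, which couples ventricular cells, had 395, 189 and 364 CPM against 364, 330.3 and 439.6 CPM (log2 fold change 0.26, and -0.012 without vehicle 2).

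Of 19 further genes of calcium cycling, 12 had a higher and 7 a lower fitted value with β-NMN, 2 had an unadjusted p below 0.05 (11.3% of all genes) and edgeR called 0 (DESeq2 1), and the median log2 fold change was 0.052. Without vehicle 2 there were 5 with such a p, 2 higher and 3 lower (10.3% of all genes). The pair with the smallest p were calcium channels of pacemaker and atrial cells that were lower with β-NMN. Cacna1d had 6.3, 14.6 and 5.73 CPM with vehicle against 3.13, 1.92 and 2.4 CPM, with no overlap between groups. Its log2 fold change was -1.85 ± 0.41 (edgeR adjusted p = 0.435, DESeq2 adjusted p = 0.00383) and -1.30 without vehicle 2. Cacna1h had 13.5, 84.5 and 28 CPM against 9.2, 10.6 and 14.3 CPM and overlapped. Of 18 further genes of conduction 2 had such a p (11.3% of all genes), and 3 without vehicle 2 (10.3%). Both tests called 0, but DESeq2 gave no adjusted p for a gene of this list. Shox2, a factor of the sinus node, had 0.768, 7.84 and 1.31 CPM with vehicle against 0.931, 0.721 and 0.791 CPM. Vehicle heart 2 was by far the highest, and the log2 fold change of -2.03 was -0.35 without it.

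The 29 further sarcomere genes had 23 higher and 6 lower fitted values with β-NMN, a median log2 fold change of 0.30 (0.13 without vehicle 2) and 0 calls in edgeR (DESeq2 1, where it called 1.74% of all genes). An unadjusted p below 0.05 was found for 4 of the 29 (11.3% of all genes), all 4 higher with β-NMN (3.68% of all genes). Without vehicle 2 there were 5, of which 4 were higher (4.41% of all genes) and 1 lower (5.94%). Obsl1, a relative of obscurin, had 105, 114 and 117 CPM against 145, 161 and 158 CPM, with a log2 fold change of 0.46 ± 0.11 (edgeR adjusted p = 0.435, DESeq2 adjusted p = 0.0105) that was 0.47 without vehicle 2. Here vehicle 2 lay inside the range of its group. Trim54, a ubiquitin ligase of the sarcomere, had 259, 176 and 251 CPM against 323, 317 and 305 CPM. Of 10 cardiac transcription factors 6 were higher and 4 lower, 1 had an unadjusted p below 0.05 and both tests called 0. Nkx2-5, a master factor of the heart, had 73.4, 76.3 and 70.1 CPM against 79.7, 105 and 95.5 CPM (0.35 ± 0.13, edgeR adjusted p = 0.435).

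Natriuretic peptides and Ankrd1 depended on vehicle heart 2 for their direction or size. Nppb, the B-type peptide, had 20.5, 225 and 68 CPM with vehicle and 60.5, 151 and 142 CPM with β-NMN. Its log2 fold change was 0.17 ± 0.79 with all hearts and 1.41 ± 0.56 without vehicle 2 (edgeR adjusted p = 0.448), and it ranged from -0.31 to 1.41 over the hearts left out in turn. Ankrd1, a titin-bound stretch sensor, had 1427, 3899 and 1522 CPM against 890.2, 1056 and 3122 CPM. A single heart in each group was high, and the log2 fold change of -0.43 ± 0.61 turned to 0.19 without vehicle 2. Nppa and Nppb, which lie next to each other on chromosome 4, did not rank the hearts alike. Nppa reads were 79.7%, 1781% and 910.1% of Nppb reads with vehicle and 167%, 55.1% and 29.6% with β-NMN, which overlapped (exact permutation p = 0.2).

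Promoters of 3 of these genes are shown because their transcripts cover the atrial pattern (Myl7, Nppa) and one of the genes whose groups did not overlap (Acta1). Each is the 250 bases before the RefSeq start on GRCm38.p6, read 5′ to 3′ on the gene's strand. Capitals mark motifs that were searched on both strands and did not overlap each other. TEAD factors bind CATTCC. The motif of GATA factors was searched as GATAA. That of T-box factors was TCACACC, and the TATA box was searched as TATAAA. The fifth was the CArG box of serum response factor, and the second GATA match of Nppa is on the opposite strand.
Acta1, chr8:123894776-123895025, minus strand: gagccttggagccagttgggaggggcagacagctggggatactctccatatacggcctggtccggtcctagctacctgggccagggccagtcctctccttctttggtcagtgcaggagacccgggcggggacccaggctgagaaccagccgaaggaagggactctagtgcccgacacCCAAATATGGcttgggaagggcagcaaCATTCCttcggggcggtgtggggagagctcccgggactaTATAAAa
Myl7, chr11:5898783-5899032, minus strand: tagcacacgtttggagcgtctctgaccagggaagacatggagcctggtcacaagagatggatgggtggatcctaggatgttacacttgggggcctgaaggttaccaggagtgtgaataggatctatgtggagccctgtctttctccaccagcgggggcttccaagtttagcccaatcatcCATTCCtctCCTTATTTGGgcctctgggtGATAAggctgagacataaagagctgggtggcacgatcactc
Nppa, chr4:148000472-148000721, plus strand: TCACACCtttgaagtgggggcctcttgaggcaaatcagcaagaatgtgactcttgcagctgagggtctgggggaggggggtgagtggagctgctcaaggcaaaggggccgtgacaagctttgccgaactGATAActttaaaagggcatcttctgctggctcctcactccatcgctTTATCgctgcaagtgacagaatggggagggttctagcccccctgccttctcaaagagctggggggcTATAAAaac
Acta1 and Myl7 each hold a CArG box and a TEAD motif within 73 bases of the start. A promoter was given for 35 of the 39 genes. For each of these the promoter nearest the annotated start of the gene was used, while the shares of all promoters were taken without such a choice. The CArG box stood in 6 of these 35 and in 1.47% of all 32851 promoters, the TEAD motif in 11 and in 12.6%, the GATA motif in 13 and in 22.6%, the T-box motif in 4 and in 3.33%, and the TATA box in 5 and in 12.4%. These matches are a description of letters only.

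Markers of other cell types were counted in the same fit of the hearts. All 7 fibroblast markers had a lower fitted value with β-NMN, 1 had an unadjusted p below 0.05 (11.3% of all genes) and both tests called 0, with summed levels of 1067 to 2198 CPM in vehicle and 893 to 1306 CPM in β-NMN hearts. Of 7 leukocyte markers 6 were lower, and 3 had such a p, all lower (7.63% of all genes). Without vehicle 2 there were 5, all lower (5.94%). EdgeR called 0 and DESeq2 1 (1.74% of all genes), and summed levels were 189.9 to 339 CPM against 225 to 400.3 CPM. Itgam, a myeloid integrin, had 36.8, 31.8 and 35.6 CPM against 22.7, 24.7 and 25 CPM. Of 8 endothelial markers 6 were higher, and 3 had such a p, all higher (3.68% of all genes). Without vehicle 2 there were 2, both higher (4.41%). EdgeR called 0 of them and DESeq2 1 (1.74%), with summed levels of 1006 to 1063 CPM against 1079 to 1251 CPM that did not overlap. Of 5 smooth muscle markers 4 were higher and 1 lower, and of 5 erythroid markers 1 was higher and 4 lower. Of 4 skeletal muscle markers tested 3 were lower, led by Atp2a1, the fast-muscle calcium pump, at 24.8 CPM in vehicle heart 2 and between 0.946 and 2.85 CPM in the others. Both adipocyte markers tested and both lung epithelial markers tested were lower, with Cfd at 67.1 CPM in vehicle heart 2. Without that heart both adipocyte markers were higher, and of 3 lung epithelial markers 2 were higher and 1 lower. The median log2 fold change of the fibroblast markers was -0.49 with it and -0.16 without it, and that of the leukocyte markers -0.52 and -0.43. The part of cell composition in the cardiac genes was not tested.

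Lungs of the same mice served as the contrast. Heart and lung were compared within each mouse over 18318 genes. EdgeR called 35 of the 39 genes higher in heart, where 29.2% of all genes were, and the 4 genes not called were Myl4, Myl7, Sln and Gja5, all of them atrial. The same 4 were left out under every alternative. The remaining atrial genes, Nppa, Kcna5 and Kcnj3, were called higher in heart, at log2 differences of 7.88, 7.07 and 7.32. Myl2, Acta1, Nppb and Kcnj3 did not pass the filter on low counts in lungs and entered this fit through their levels in hearts, so their calls carry no weight of their own. Of the 35 genes that passed in both organs, 31 were called. Among them Myl3 had the largest difference, at 1157 to 6399.7 CPM in hearts and 0.896 to 4.24 CPM in lungs on the scale shared by both organs (log2 difference 11.2 ± 0.77, SE, edgeR adjusted p = 5.35e-06). Myl2, with 1077 to 5823 CPM in hearts, stood at 0.106 to 0.411 CPM in lungs. Acta1, with 98.1 to 744 CPM in hearts, had 0 reads in 2 lungs and at most 10, in vehicle lung 2.

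The smallest differences were those of Gja5, at -0.18 ± 0.27 (edgeR adjusted p = 0.589), and of Myl7 and Myl4, both at 0.87 (adjusted p = 0.604 and 0.504), followed by Sln at 0.90. Each had levels in lung within its range in heart. Myl7 ranged from 0.176 to 2629 CPM in hearts with a median of 37.7, and from 7.68 to 96 CPM in lungs with a median of 22.7. Myl4 ranged from 1.56 to 3379.6 CPM with a median of 44.3 in hearts, and from 9.59 to 156 CPM with a median of 32.9 in lungs. For Myl4, Myl7 and Sln the heart exceeded the lung in 3 of 6 mice and for Gja5 in 2 of 6, whereas for the other 35 genes it did so in all 6.

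Per kilobase of exon, the order of the genes differed between the organs. In hearts the highest median levels belonged to Myh6 (5762 CPM per kb), Mb (4713), Atp2a2 (3489), Myl3 (2549) and Myl2 (2437), and the lowest to Myh7b (3.96), Gja5 (2.01) and Hcn4 (1.54). In lungs Myl7 had the highest median over the 6 libraries, with 38.5 CPM per kb, but its levels were spread widely, and in β-NMN lungs 1 and 3 it lay below Tpm1. It was followed by Tpm1 (32.1), Des (26.5), Atp2a2 (24.3) and Tcap (20.2), of which Tpm1, Des and Atp2a2 are also used by smooth muscle and other cells. Myl2 ranked low in lungs, at 0.105 CPM per kb.

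**Figure D4:**
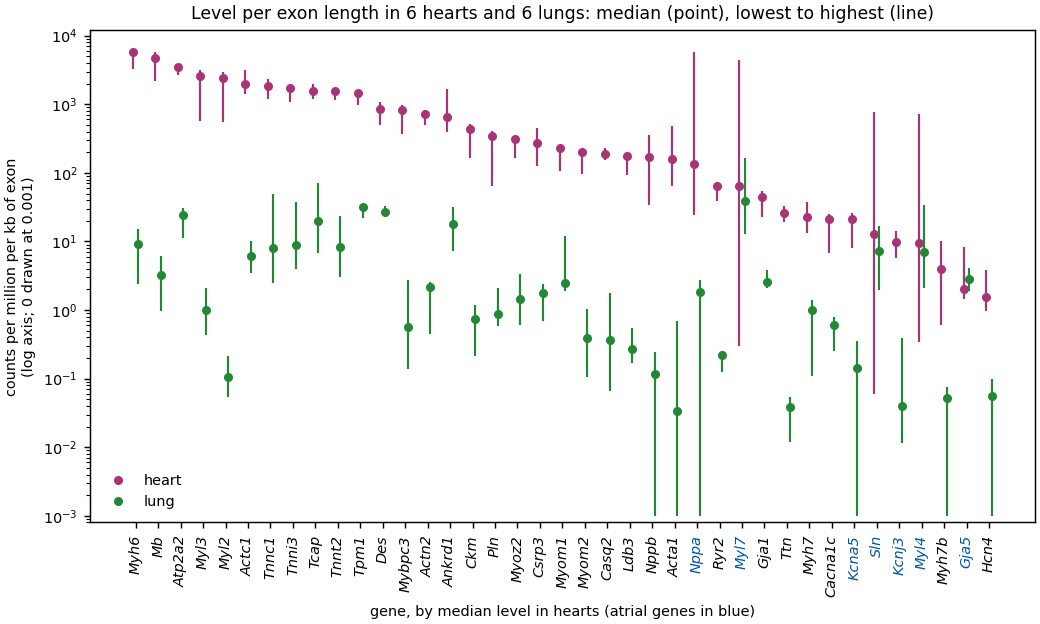
CPM per kilobase of exon (y axis, log scale, with 0 drawn at 0.001) of the 39 genes (x axis, ordered by the median in hearts, atrial genes in blue), as the median (point) and the range from lowest to highest (line) of 6 hearts (purple) and 6 lungs (green). The organs lie far apart for 35 genes, while for Myl7, Sln, Myl4 and Gja5 the lung range falls inside the heart range or overlaps it.

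In lungs, 35 of the 39 genes passed the filter on low counts, and Myl2, Acta1, Nppb and Kcnj3 did not. EdgeR called 0 of the 35 between β-NMN and vehicle, where 0.00% of all 17008 genes were called. The smallest adjusted p was 0.969. DESeq2 called 0 of the 35 as well (0.0529% of all genes), and gave 11 an unadjusted p below 0.05 (3.08%). At an unadjusted p below 0.05 stood 8 of 35 genes, against 1.77% of all genes, and 27 of 35 had a lower fitted value with β-NMN, where 50.1% of all genes had a higher one. Lower were Myl4, Myl7, Tnni3, Tnnc1, Mybpc3, Tcap and Ckm, (1.28% of all genes), and higher was Cacna1c (0.494%). The lung of vehicle replicate 2, with the fewest counts of all libraries, stood apart as well. Its log2 CPM differed from the other lungs with an SD of 1.40 to 1.70, against 0.394 to 0.719 among the others. It held the highest value at 22 of the 39 genes (36.4% of all genes tested). Without it 4 genes kept such a p, against 4.31% of all genes. Myl4, Tcap and Ckm were lower (2.64% of all genes) and Cacna1c was higher (1.67%).

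Myl4 had 44.6, 212 and 44.6 CPM in vehicle lungs and 18.9, 37.4 and 11.8 CPM in β-NMN lungs, a log2 fold change of -2.14 ± 0.75 (SE; edgeR adjusted p = 0.969) that was -0.98 without vehicle 2. Myl7 had 27.9, 131 and 34.1 CPM against 13.6, 28.6 and 9.43 CPM. In both genes vehicle lung 2 was the highest and β-NMN lung 3 the lowest, and for Myl4 the groups did not overlap. Tcap had 28, 93.2 and 30.2 CPM against 19.9, 16.1 and 7.89 CPM (log2 fold change -1.78 ± 0.58, and -1.0 without vehicle 2). Cacna1c, used by smooth muscle as well, had 12.5, 7.22 and 14.4 CPM against 18.4, 20.8 and 19.7 CPM (0.78 ± 0.30, and 0.55 without vehicle 2). In vehicle lung 2, summed adipocyte markers stood at 244 CPM (5.76 to 62.5 in the others), erythroid markers at 11867 CPM (1999 to 4088) and leukocyte markers at 2509.6 CPM (5496 to 7039), and their part in these values was not tested. Groups did not overlap at 9 of the 39 genes (8.21% of all genes tested), at 8 that were lower (3.75%) and at 1, Cacna1c, that was higher (4.47%). Among the lower were Tnnt2, Tnni3, Tnnc1, Mybpc3, Tcap, Des and Ckm beside Myl4.

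**Figure D5:**
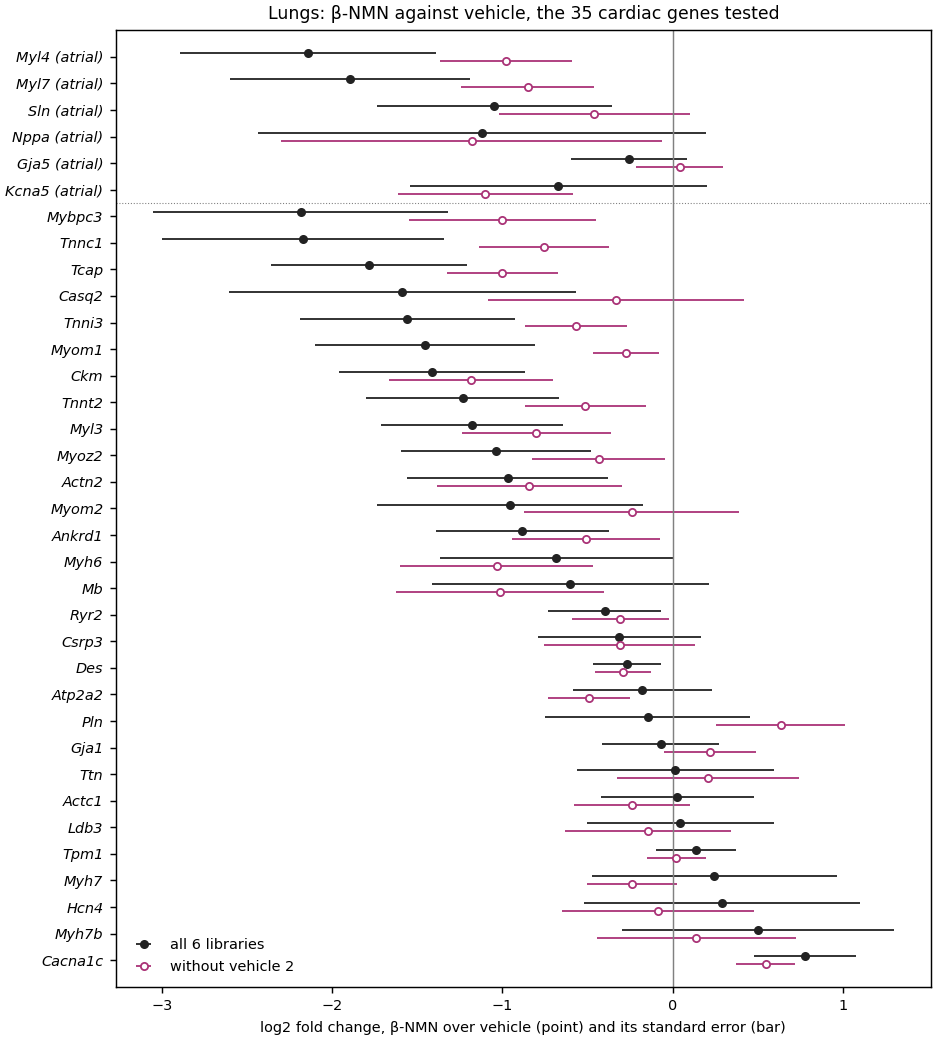
Log2 fold change of β-NMN over vehicle in lungs (x axis) for the 35 genes tested (y axis), with its standard error as a bar, from all 6 lungs (filled) and without vehicle replicate 2 (open); atrial genes stand above the dotted line. Most points lie left of 0, and many move toward 0 without that lung, for example Myl4 from -2.14 to -0.98.

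The difference of the β-NMN effect between heart and lung was tested as an interaction over the 12 libraries with the mouse as a block. It called 0 of the 39 genes (0.00% of all genes), and 8 had an unadjusted p below 0.05, against 2.72% of all genes. Without the mouse of vehicle replicate 2 there were 15, against 4.98% of all genes in that fit. DESeq2 called 0 of the 39 and 0.0655% of all genes. The largest positive differences with such a p were those of Mybpc3, Ckm and Tnnc1 at 2.66, 2.15 and 2.15 on the log2 scale, in which hearts had a higher and lungs a lower fitted value with β-NMN. Of the 35 genes tested in both organs, 4 had groups that did not overlap in either, higher in hearts and lower in lungs, where 0.262% of all genes tested in both did. Gja5 was negative at -1.08 ± 0.41 (SE; edgeR adjusted p = 0.948).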

How the data were processed

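Libraries were made from poly(A) RNA. Per the labels' processing notes, STAR 2.7.3a (the methods name another version) aligned the reads to mm10, featureCounts 2.0.0 assigned them to genes, and the authors deposited raw read counts per gene symbol, with no normalization. The methods describe the reads as single-end in one place and paired-end in another. The annotation and strand setting are not given in the sources used here. Exons of 16 of the 39 genes overlap an antisense gene and those of 1 (Tnni3 with Dnaaf3) a gene on the same strand in GENCODE M21, from which positions and exon lengths come.

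From these counts separate models were made for hearts and lungs in edgeR 4.0.16 (R 4.3.3): filterByExpr, TMM, estimateDisp and the legacy quasi-likelihood F-test, with Benjamini-Hochberg adjustment over all genes tested and a threshold of 0.05. Heart against lung and the interaction used the 12 libraries with the mouse as a block. Log2 CPM used a prior count of 2. The fits were tested on simulated data. Alternatives were DESeq2 1.42.0, its size factors, total counts, no filter, limma-voom (limma 3.58.1) with quality weights, a replicate block and leaving out each library. Differences between groups of single values were also compared with exact two-sided permutation tests. The p-values measure the spread between 3 mice per group. Depth limits the genes at a few reads, mainly in lungs, and its part in other values was not tested.

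Both organs of a mouse were paired by the mouse name in the titles. Vehicle and β-NMN mice share only a number. The 39 genes and the other lists were chosen with earlier results of these data known. Values per heart are given for 15 main genes and for others with an unadjusted p below 0.05, a log2 fold change of 0.5 or more, or groups that did not overlap. Of each further list at most the 2 genes with the smallest p were named. A result on 1 gene of the further lists is not reported here.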

Additional observations from a re-analysis of the deposited data

Results flagged for a closer look

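In 4 of the 35 genes tested in both organs, against 0.262% of all such genes, the groups did not overlap and lay in opposite order in hearts and lungs, every β-NMN heart lying above every vehicle heart and every β-NMN lung below every vehicle lung. The difference of the β-NMN effect, heart minus lung, was 2.15 on the log2 scale for Tnnc1, 2.66 for Mybpc3, 0.76 for Des and 2.15 for Ckm. The test of this difference by edgeR's interaction term did not pass, with an adjusted p of 0.948 for each. Without the mouse of vehicle replicate 2 the differences were 1.2, 1.59, 0.58 and 1.53. In lungs Mybpc3 stood at 3.17, 15.3 and 3.02 CPM with vehicle and at 0.975, 2.94 and 0.697 CPM with β-NMN, and Ckm at 3.07, 4.77 and 3.11 CPM against 0.914, 2.36 and 0.77 CPM, which is 15 to 106 reads per library. Des, which smooth muscle also uses, had 151, 139.6 and 141 CPM against 122, 117 and 119 CPM in lungs.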

How the results depend on the processing

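In hearts, DESeq2 called 3 of the 39 genes where edgeR called 0, and the other alternatives, the replicate block included, called 0. Vehicle and β-NMN mice with the same replicate number deviated together with correlations of 0.241, 0.18 and 0.0735 in hearts and -0.518, -0.318 and 0.304 in lungs, so a paired analysis rests on the number alone, and its replicate block left the calls at 0 in both organs. In hearts, but not in lungs, every sample correlated best with its own number, which is a hint from the data and not from the design. Genes with an unadjusted p below 0.05 numbered 8 in hearts (14 with DESeq2, 11 without vehicle 2 and 6 with the block, where 10.3% of all genes had one) and 8 in lungs (11, 4 and 12, the last against 0.629% of all genes). The interaction had 8, against 2.72% of all genes. Its number ranged from 2 without β-NMN 1 to 21 with limma-voom. The shares of all genes in those fits are not given, so this range is not read further. Without the replicate block (the mouse), heart against lung still called 35 genes. Fold changes reversed sign with total counts (Tcap -0.030, Atp2a2 -0.028, Casq2 -0.017, Nppb -0.10) or limma-voom (Tcap -0.0043, Ryr2 -0.058, Atp2a2 -0.029, Cacna1c -0.059, Gja1 -0.028, and Nppa 0.089 against -4.36 with edgeR). With each heart left out, Tcap ranged from -0.10 to 0.25, Ryr2 from -0.10 to 0.33, Atp2a2 from -0.030 to 0.15, Cacna1c from -0.077 to 0.57, Gja1 from -0.012 to 0.45, Nppb from -0.31 to 1.41 and Ankrd1 from -1.22 to 0.19. In heart against lung, Sln ranged from -0.14 to 2.00. The cause was not tested. The other 32 genes kept their sign in hearts with any heart left out. Counts of 0 to a few reads limit Acta1, Nppb and Myl2 in lungs.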
